A study of Mus musculus with 60 samples.

Results

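The proximal piece of the developing mouse lower jaw was compared between embryonic day E14.5 and E13.5. The comparison takes the 3 arrays whose titles name the proximal mandible at E14.5 and the 3 that name it at E13.5, which makes 6 of the 60 arrays in the series, and covers 18193 genes. The series profiles the mandible and the maxilla (upper jaw), each split into a distal and a proximal piece, over 5 ages from E10.5 to E14.5. It was made within the FaceBase consortium, to follow gene activity while both jaws take shape. All embryos were of the C57Bl/6 strain, with no mutant allele or treatment named. Each array was hybridized with material made from 3 micrograms of total RNA. The groups used here are proximal mandible at E14.5 and at E13.5, both of batch 1, and for comparison distal mandible at E14.5 and at E13.5 (batch 1) and proximal maxilla at E14.5 and at E13.5 (batch 2), with 3 arrays each. Levels at earlier ages come from proximal mandible at E12.5 (batch 2) and at E11.5 and E10.5 (both batch 3). The tissue is tagged as proximal bone. Nothing in the labels tells if replicate arrays stand for separate embryos, litters or pools. Every p-value and standard error (SE) reflects only how far arrays spread within groups, pooled over the 20 groups of the series. How much of this spread is technical is not known.

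The mandible grows out of the first pharyngeal arch. Neural crest cells in the arch make its bone, cartilage and connective tissue, the arch's mesoderm makes its muscle and vessels, and surface epithelium becomes skin and the lining of the mouth. The jaw bone forms directly in connective tissue beside Meckel's cartilage, a rod that is later partly replaced or lost, and the proximal end carries the chewing muscles and lies next to the developing ear. In this window of development the surface epithelium builds layers, bone matrix begins to mineralize, and red cells of yolk sac origin, which carry embryonic globins, give way to cells from the fetal liver.

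Values are log2 signals, so that a difference of 1 is a doubling. A gene was called when limma's adjusted p, over all 18193 genes, was under 0.05. The median signal of the 6 arrays lay between 6.13 and 6.16, and the median difference over all genes was -0.03. A gene was taken as not shown to be present in a group whose mean did not exceed 4.78 (the 25th percentile of signal was computed for every array, and this is the largest of the 60), and a fold against such a group is a lower bound. Hand2, a transcription factor of the distal part of the arch, averaged 8.62 at E14.5 and 9.40 at E13.5 in proximal mandible. Its averages were 12.12 and 12.68 in distal mandible at the same ages, and 7.39 and 7.70 in proximal maxilla. The proximal pieces thus sat between both on this marker, although the maxilla arrays belong to another batch.

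The arrays of a group were not alike in every respect. Xist, which is transcribed from the inactive X chromosome of females, was at 7.17, 11.95 and 12.04 in E14.5 replicates 1, 2 and 3, against 11.74, 12.58 and 13.03 at E13.5. The Y-linked Uty was at 8.42, 7.81 and 7.45 at E14.5, against 7.69, 7.31 and 3.23 at E13.5. Both were thus high in 4 arrays, while E14.5 replicate 1 held less Xist, and E13.5 replicate 3 lacked the Y-linked transcript. These 4 arrays held transcripts of both sexes, so the arrays of an age did not all hold the same mix. A list of 9 choroid plexus genes (the tissue inside the brain that secretes cerebrospinal fluid), drawn up after their values were seen, averaged 6.01, 6.24 and 5.15 at E14.5, against 7.19, 5.06 and 8.63 at E13.5. Ttr, the thyroid hormone carrier that defines this tissue, was at 10.25, 10.96 and 6.89 at E14.5, against 11.97, 6.43 and 13.31 at E13.5. It was therefore high in E13.5 replicates 3 and 1 and low in E13.5 replicate 2 and E14.5 replicate 3. Counts that turn on these arrays are given with and without them.

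At E14.5, 3898 genes (21.4%) were called, 1656 (9.1%) of them higher and 2242 (12.3%) lower than at E13.5. The values of the 2 ages did not overlap for 6468 genes (35.6%). These are more genes than were called, so a gene not called is not thereby shown to be unchanged. The larger changes ran mostly upward. Of the 307 called genes that changed at least 2-fold (1.69%), 234 (1.29%) were higher at E14.5 and 73 (0.401%) were lower. The 15 genes with the largest rises include 5 members of the list of stratifying epithelium, the muscle genes Myl2 and Ckm, the bone gene Dmp1 and the mast cell gene Cma1, and the 15 with the largest falls include 2 embryonic globins. In bulk tissue, fewer cells of a type and less RNA per cell cannot be told apart, and the same holds for rises. Without E13.5 replicate 3 the number of called genes was 3002, and without E13.5 replicate 2 it was 3370.

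**Figure D1:**
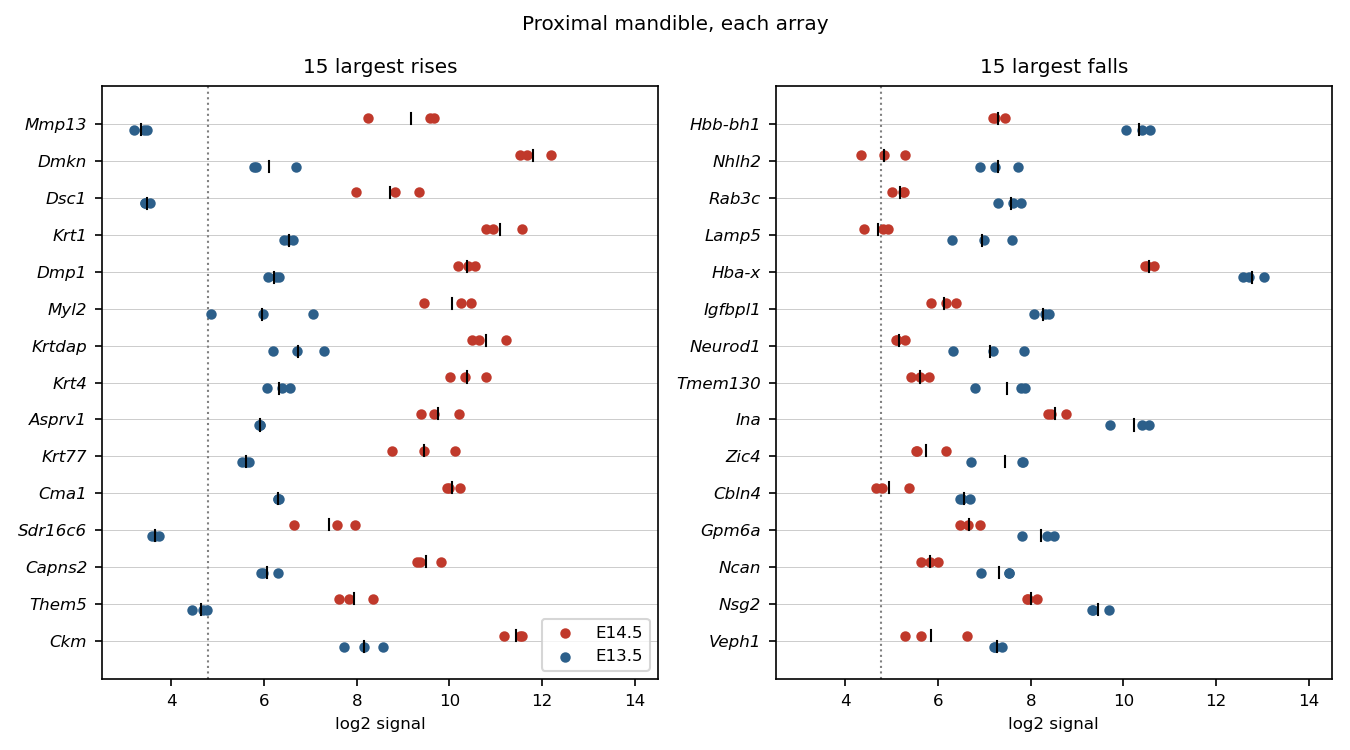
Log2 signal (horizontal axis) of the 15 genes with the largest rises (left) and the 15 with the largest falls (right) in each proximal mandible array, with E14.5 in red above E13.5 in blue, a black tick at each mean and a dotted line at the presence limit of 4.78. The ages do not overlap for any gene shown, as the choice of these genes required, and Mmp13, Dsc1, Sdr16c6 and Them5 lie under the limit at E13.5, while at E14.5 Lamp5 has its mean and 1 of its 3 arrays under it.

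To show what lies before the start of genes from the main groups, the 200 bases before the transcription start are given below for Mmp13 (matrix breakdown), Krt10 (epidermis), Ckm (muscle), Cma1 (mast cells) and Hba-x (embryonic red cells). They are RefSeq sequences of build GRCm38.p6 on the strand of the gene, 5′ to 3′: chr9:7272314-7272513 (plus strand), chr11:99389365-99389564 (minus), chr7:19410894-19411093 (plus), chr14:55944676-55944875 (minus) and chr11:32276400-32276599 (plus), all upstream of the annotated start. Capitals mark matches, on either strand, to 5 patterns. They are TGTGGT, the letters bound by RUNX factors, and TGANTCA, those of AP-1. The others are CAGCTG, an E-box bound by muscle regulators, and CCACACCC, the CACC box of red cell genes. The last is TATAAA, the core of a TATA box.
Mmp13: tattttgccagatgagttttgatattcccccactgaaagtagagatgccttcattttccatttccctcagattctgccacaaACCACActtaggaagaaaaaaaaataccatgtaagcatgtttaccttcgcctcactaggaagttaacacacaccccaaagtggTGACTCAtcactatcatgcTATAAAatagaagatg
Krt10: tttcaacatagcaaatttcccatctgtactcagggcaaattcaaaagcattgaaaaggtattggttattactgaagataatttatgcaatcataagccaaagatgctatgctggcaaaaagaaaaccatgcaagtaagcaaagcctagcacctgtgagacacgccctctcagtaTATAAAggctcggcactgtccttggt
Ckm: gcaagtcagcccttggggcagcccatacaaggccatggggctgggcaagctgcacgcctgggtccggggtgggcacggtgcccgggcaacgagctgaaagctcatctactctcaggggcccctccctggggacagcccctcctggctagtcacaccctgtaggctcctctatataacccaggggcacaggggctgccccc
Cma1: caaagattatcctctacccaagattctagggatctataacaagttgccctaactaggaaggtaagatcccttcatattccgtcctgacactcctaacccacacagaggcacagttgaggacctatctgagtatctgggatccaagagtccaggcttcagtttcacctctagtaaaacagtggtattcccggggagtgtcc
Hba-x: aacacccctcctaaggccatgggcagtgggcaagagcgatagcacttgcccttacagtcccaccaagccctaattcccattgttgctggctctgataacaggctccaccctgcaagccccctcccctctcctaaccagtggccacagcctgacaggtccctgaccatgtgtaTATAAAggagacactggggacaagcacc
Mmp13 holds the RUNX letters (as ACCACA, from 118 bases before the start), the AP-1 letters (as TGACTCA, from 35) and a TATA box (from 16), none overlapping. Krt10 and Hba-x hold a TATA box, from 26 and 28 bases before the start, and the Ckm and Cma1 windows hold none of the 5 patterns. Only the exact letters were searched. The Ckm window holds tatataa, which TATAAA does not match, so a TATA box of other letters is not excluded. Among 32851 promoter windows of the same length, 11.2% hold the RUNX letters, 5.48% AP-1, 10.9% the E-box, 2.72% the CACC box and 9.96% the TATA box. Such matches describe the letters and do not show binding, and 25 of the 30 leading genes had a promoter in the table.

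The list counts that follow stand beside 9.1% of all genes called higher and 12.3% called lower, and counts of 1 or 2 genes in a list lie near these shares or rest on few members. Lists and members were chosen with earlier results of these data known, so a count above these shares is a description and not a test. Genes that are switched on as epithelium stacks into layers rose. Of 18 measured genes of stratifying epithelium, 15 rose and none fell, with a median difference of 2.24, or 1.86 with the 4 members under the presence limit at E13.5 set to their bounds. Krt10, the keratin that marks cells leaving the basal layer, was at 13.31, 12.78 and 12.92 at E14.5, against 9.73, 9.93 and 9.60 at E13.5. The ages were far apart, with a rise of 3.25 ± 0.10 (SE) on the log2 scale and an adjusted p of 8.75e-30. Krt1, its keratin partner, was at 11.57, 10.79 and 10.94 at E14.5, against 6.63, 6.52 and 6.44 at E13.5, a 23.7-fold rise. Dsc1, a desmosomal cadherin of the upper layers, was at 9.34, 7.98 and 8.83 at E14.5, against 3.43, 3.54 and 3.43 at E13.5. All E13.5 values lay under the presence limit, so the rise was at least 15.3-fold (limma adjusted p = 2.26e-29). Krt77, another suprabasal keratin, rose by 3.83 ± 0.16. Klf4, a regulator of barrier formation, and Ivl (involucrin) were not called, with differences of 0.23 and -0.18, nor was Flg (filaggrin), which was under the presence limit at both ages, and these 3 were named after their values were seen because they are the members not called.

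Other large rises were in genes known from skin and oral epithelium, of which Krtdap and Krt4 are also members of the list above. Dmkn (dermokine, secreted by differentiating keratinocytes) was at 12.19, 11.51 and 11.67 at E14.5, against 5.83, 6.70 and 5.79 at E13.5, a 51.4-fold rise. Krtdap (a keratinocyte differentiation protein), Krt4 (a keratin of the mouth lining) and Asprv1 (a skin protease that processes filaggrin) rose 16.5-fold, 16.5-fold and 14.4-fold. Capns2, a calpain small subunit, rose 10.7-fold, Them5, a thioesterase, at least 8.93-fold and Sdr16c6, a short-chain dehydrogenase, at least 6.11-fold. None of these 7 genes had overlapping ages, which the choice of the leading genes required.

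Genes of basal and general epithelium rose less. Of 14 measured, 11 were higher and none lower, with a median of 0.79. Perp, a desmosome protein and target of p63, was at 12.48, 12.26 and 12.53 at E14.5, against 10.75, 11.25 and 10.61 at E13.5. Krt15, a basal keratin, rose by 1.34 ± 0.14 and Dsp (desmoplakin) by 1.11 ± 0.12. Trp63, the master regulator of stratified epithelium, lay between 9.97 and 10.03 at E14.5, against 9.63, 9.82 and 9.37 at E13.5, a rise of 0.39. Epcam, an adhesion protein present throughout embryonic epithelium, rose by 0.29.

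Bone genes rose as a group. Of 16 measured genes of bone matrix and osteoblasts, 11 rose and none fell, with a median of 0.85. Dmp1, made by osteocytes and late osteoblasts, was at 10.41, 10.56 and 10.18 at E14.5, against 6.32, 6.26 and 6.09 at E13.5, a rise of 4.16 ± 0.25 or 17.9-fold (limma adjusted p = 1.99e-18). Ibsp (bone sialoprotein) was at 13.17, 13.26 and 13.12 at E14.5, against 12.07, 12.17 and 12.11 at E13.5. Alpl, the phosphatase needed for mineralization, rose by 1.26 ± 0.21, Ifitm5, a membrane protein of osteoblasts, by 1.32 ± 0.18 and Omd (osteomodulin) by 1.58 ± 0.21. Sp7, the transcription factor that commits osteoblasts, was at 9.43, 9.38 and 8.90 at E14.5, against 8.42, 8.39 and 8.48 at E13.5, a rise of 0.81. For each of these genes the ages did not overlap.

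Among the 15 leading rises, the largest difference of measured signals was that of Mmp13, a collagenase of hypertrophic cartilage and osteoblasts. It was at 9.58, 9.66 and 8.25 at E14.5, against 3.19, 3.40 and 3.48 at E13.5. Since the E13.5 mean lay under the presence limit, the rise was at least 20.9-fold (limma adjusted p = 2.58e-26). This bound does not rank Mmp13 above Dmkn, which rose 51.4-fold. Of 7 hypertrophic cartilage genes 4 rose and none fell, including Panx3, a channel of hypertrophic chondrocytes and osteoblasts, by 1.40 ± 0.32. Col10a1, the collagen that defines hypertrophic cartilage, was at 9.20, 5.002 and 4.82 at E14.5, against 4.86, 5.05 and 5.22 at E13.5. Its call rested on E14.5 replicate 1, without which its difference was -0.13, and the count of the list was then 2. Ihh, the hedgehog ligand of prehypertrophic cells, averaged 5.11 at E14.5 and, under the presence limit, 4.74 at E13.5, and was not called.

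Markers of osteoclasts, the cells that resorb bone, rose for 5 of 11 genes and fell for none, with a median of 0.37. Acp5, the tartrate-resistant phosphatase used to stain these cells, was at 9.10, 9.01 and 8.38 at E14.5, against 7.03, 7.19 and 6.89 at E13.5, a 3.47-fold rise. Mmp9, a gelatinase, rose by 1.58 ± 0.19, Atp6v0d2, a proton pump subunit, by 1.52 ± 0.17 and Ctsk (cathepsin K) by 0.72 ± 0.13. E14.5 replicate 3 was the lowest of its group for Acp5, Mmp9, Atp6v0d2 and Ctsk, as it was for Mmp13, Dmp1, Alpl and Sp7, but still above every E13.5 array.

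Cartilage genes moved in both directions. Of 20 measured, 7 rose and 3 fell, with a median of 0.52. Comp, a matrix protein of cartilage and tendon, was at 8.94, 8.02 and 7.75 at E14.5, against 6.53, 5.81 and 6.99 at E13.5, and Snorc, a chondrocyte membrane proteoglycan, rose by 1.77 ± 0.19. Sox9, the transcription factor at the head of the cartilage program, was at 9.05, 8.92 and 8.75 at E14.5, against 9.47, 8.83 and 9.84 at E13.5 and was called lower, with overlapping values. Sox5, its partner in cartilage, and Wwp2, whose intron holds a microRNA of chondrocytes, were the other 2 called lower, with differences of -0.72 and -0.42, and are named here after their values were seen. Col2a1, the main collagen of cartilage, was not called, with 12.64, 12.06 and 12.11 at E14.5, against 12.21, 10.59 and 12.36 at E13.5. E13.5 replicate 2 stood apart here: 4 cartilage genes rose without it and 13 without E13.5 replicate 3. Whether the dissected pieces differed in their share of cartilage was not tested.

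Tendon and joint genes also split. Of 11 measured, 4 rose and 2 fell. Tnmd (tenomodulin, a marker of mature tendon cells) rose by 0.92 ± 0.24 and Thbs2 and Thbs4, matrix proteins of the thrombospondin family, by 0.93 and 0.59. Scx, the transcription factor of tendon progenitors, was at 6.55, 6.39 and 6.45 at E14.5, against 6.92, 6.96 and 6.84 at E13.5. Gdf5, which marks the future joint, was at 6.63, 6.59 and 6.39 at E14.5, against 7.26, 7.41 and 7.30 at E13.5. Both Scx and Gdf5 fell, by 0.44 and 0.78.

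Of 21 genes of connective tissue matrix, 12 rose and none fell, with a median of 0.44, and 7 rose without E13.5 replicate 3. Dpt (dermatopontin, a dermal matrix protein) was at 11.28, 11.12 and 11.13 at E14.5, against 9.43, 9.62 and 9.44 at E13.5, a 3.21-fold rise. Col14a1 and Col12a1, collagens that sit on the surface of other fibrils, rose by 0.86 and 0.75. Col3a1, the fibrillar collagen of soft tissue, and Dcn (decorin), a proteoglycan that binds fibrils, had differences of 0.12 and 0.34 and were not called.

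Muscle contractile and metabolic genes rose for 16 of 30 and fell for none, with a median of 0.78. Without E13.5 replicate 3 the number was 10, and 25 rose when only the 6 arrays were fitted. Ckm, the creatine kinase of muscle, was at 11.56, 11.18 and 11.53 at E14.5, against 8.16, 8.56 and 7.73 at E13.5, a 9.69-fold rise (limma adjusted p = 1.25e-22). Myl2, the regulatory myosin light chain of slow and cardiac muscle, was at 10.46, 9.45 and 10.26 at E14.5, against 5.97, 7.05 and 4.85 at E13.5. The E13.5 arrays spread widely for Myl2, but all 3 lay below those of E14.5. Tnnt3 (a fast troponin T) rose by 1.97 ± 0.21 and Eno3 (the muscle enolase) by 1.19 ± 0.14. Myh3, the embryonic myosin heavy chain, was not called, with 13.12, 13.06 and 13.23 at E14.5, against 12.41, 12.62 and 12.20 at E13.5. Its ages did not overlap. The spread used in the fit takes in other groups, such as proximal mandible at E11.5 with an SD of 1.15. At E14.5 and E13.5 the SD of Myh3 was 0.086 and 0.209.

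Of the 12 regulators of muscle formation, 1 rose and none fell, a share near that of all genes called higher (9.1%). It was Myf6, the late myogenic factor, at 8.20, 7.53 and 8.37 at E14.5, against 5.76, 6.48 and 5.88 at E13.5, a 3.98-fold rise. Myod1 and Myog, the factors of determination and differentiation, had differences of 0.05 and 0.26 and were not called. Of 8 genes of the acetylcholine receptor at the nerve and muscle junction 2 rose, the subunit gene Chrnb1 by 0.63 and the adaptor gene Dok7 by 0.31, and neither was called without E13.5 replicate 3, E14.5 replicate 2 or E14.5 replicate 3.

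**Figure D2:**
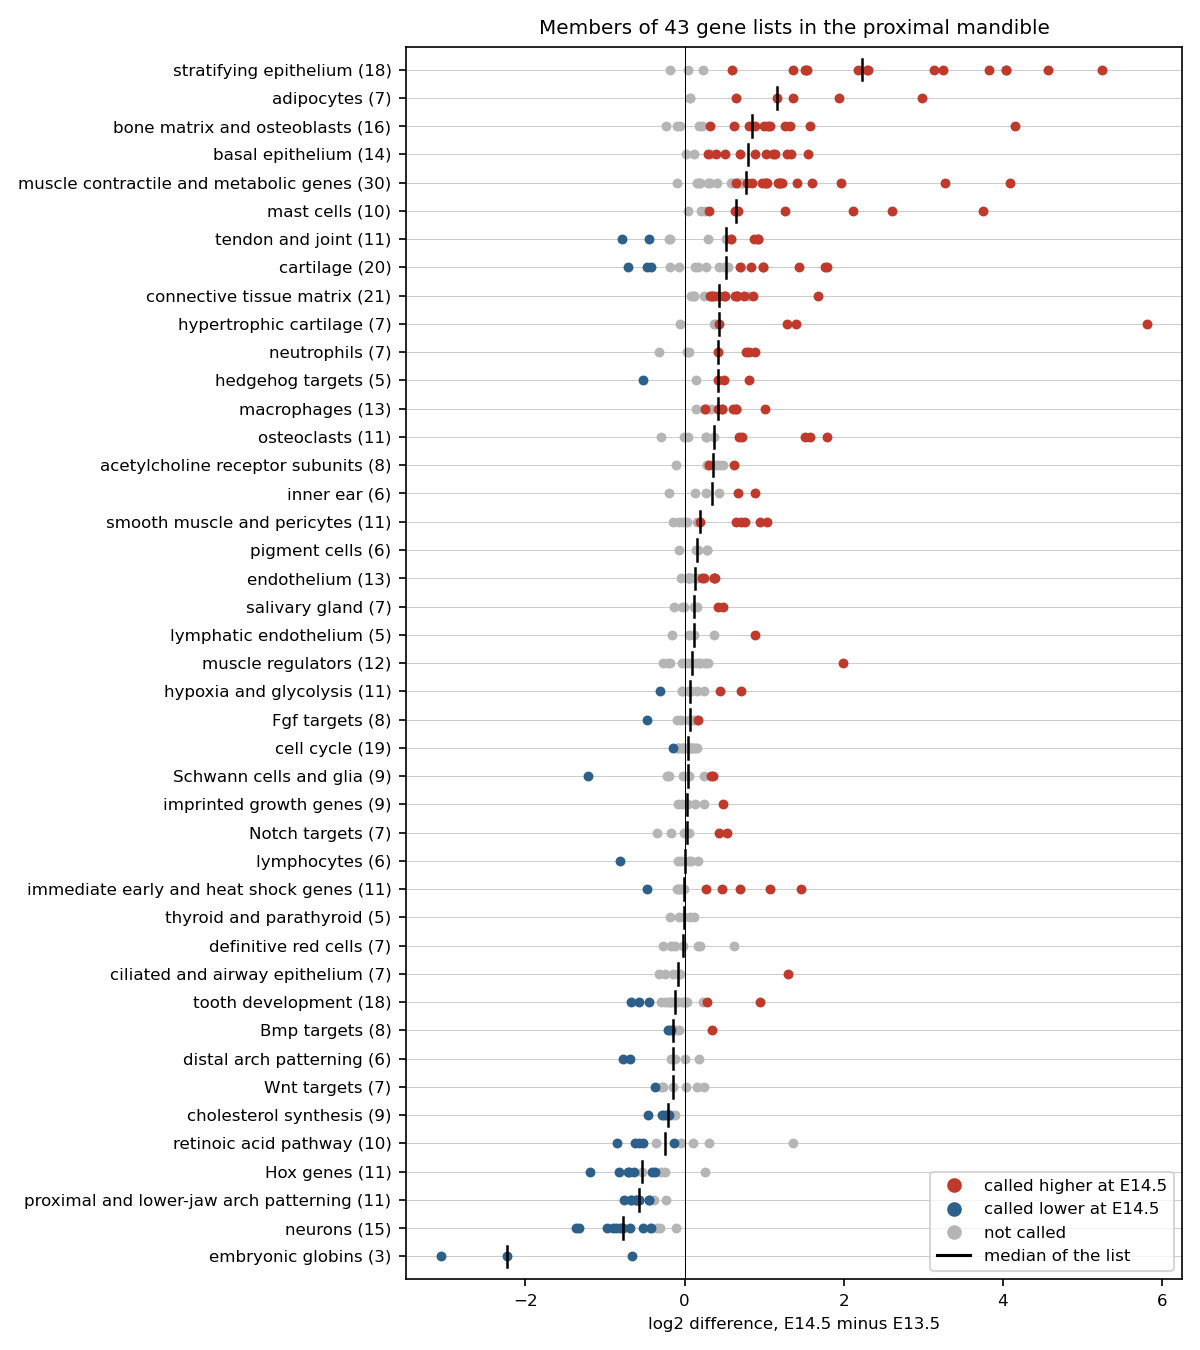
Log2 difference, E14.5 minus E13.5, of each measured member of 43 gene lists in the proximal mandible (horizontal axis), with lists ordered by their median and the number measured in brackets; red points were called higher, blue points lower and grey points not called, and the black tick is the median. Stratifying epithelium, with a median of 2.24, is at the top and embryonic globins, at -2.23, are at the bottom.

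Genes of several blood-derived and tissue-resident cells rose. Mast cell genes rose for 7 of 10 and fell for none, with a median of 0.65. Cma1, the chymase of mast cell granules, was at 10.23, 9.997 and 9.95 at E14.5, against 6.29, 6.33 and 6.31 at E13.5, a rise of 3.75 ± 0.15 (limma adjusted p = 2.62e-26). Cpa3, the granule carboxypeptidase, was at 11.89, 11.54 and 11.76 at E14.5, against 9.31, 9.14 and 8.92 at E13.5. Hdc, which makes histamine, rose by 2.12 ± 0.13 and Mcpt4, another granule protease, by 1.26 ± 0.14. Kit, the receptor mast cells share with pigment cells, had a difference of 0.26 and was not called. The proteases and Hdc were thus well apart between ages, while 3 of the 10 members, among them Ms4a2 with a called difference of 0.31, were under the presence limit at both.

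Macrophage genes rose for 8 of 13 and fell for none, with a median of 0.42. Lyz2 (lysozyme) was at 10.45, 10.78 and 10.53 at E14.5, against 9.63, 9.63 and 9.46 at E13.5, and Csf1r, the growth factor receptor of the lineage, rose by 0.47. Neutrophil genes rose for 4 of 7: S100a9 and S100a8, the calprotectin subunits, by 0.88 and 0.81, Ngp, a granule protein, by 0.77 and Ltf (lactoferrin) by 0.42. The count was 2 without E14.5 replicate 3, which was the highest array for all 4. Of 6 lymphocyte genes 1, Rag1, was called, and it fell by 0.81.

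Fat cell genes rose for 5 of 7, with a median of 1.17. Adipoq (adiponectin, a hormone of fat cells) was at 5.61, 7.42 and 7.14 at E14.5, against 3.70, 3.77 and 3.76 at E13.5, at least 3.85-fold higher (limma adjusted p = 3.57e-18). Its E14.5 replicate 1 was the lowest of the group but still above the presence limit. Fabp4, a fatty acid binding protein of fat and vessels, rose by 1.94 ± 0.24, Cebpa by 1.37 ± 0.12 and Pparg by 1.17 ± 0.13, the last 2 being the transcription factors that drive fat cell formation. Lep (leptin) and Cidec, a lipid droplet protein, are the 2 members not called, and both were under the presence limit at both ages.

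Of 13 endothelial genes 5 rose and none fell, led by Pecam1, an adhesion molecule, by 0.39 and Tek, the angiopoietin receptor, by 0.38. Lyve1, a receptor of lymphatic vessels and some macrophages, was the only 1 of 5 lymphatic genes called and rose by 0.89. Of 11 genes of smooth muscle and pericytes 6 rose, among them the pericyte genes Rgs5 and Abcc9, by 0.95 and 0.76, and Des (desmin, also of skeletal muscle), by 1.04. Acta2, the smooth muscle actin, had a difference of 0.03.

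Embryonic globins had the lowest median of the 43 lists, -2.23. Hbb-bh1, a beta-like globin of yolk sac red cells, was at 7.22, 7.46 and 7.18 at E14.5, against 10.57, 10.05 and 10.40 at E13.5. It fell by 3.06 ± 0.10 on the log2 scale, with a limma adjusted p of 4.78e-29. Hba-x, the embryonic alpha-like globin whose promoter is shown above, was at 10.65, 10.51 and 10.47 at E14.5, against 13.03, 12.59 and 12.72 at E13.5. Hbb-y, the third of the list, was at 13.90, 13.91 and 14.14 at E14.5, against 14.68, 14.62 and 14.64 at E13.5. All 3 thus fell with no overlap between ages. Of the 12 listed genes of definitive red cells 7 were measured, and none was called. Among them, 3 were under the presence limit at both ages, the adult globin gene Hba-a1 included. Hba-a1 was read from 1 probe set, so its values do not show whether adult globins were absent or changed.

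Genes of neurons also fell. Of 15 measured, 10 fell and none rose, with a median of -0.77. Tubb3, the tubulin of neurons, was at 7.54, 7.66 and 8.11 at E14.5, against 9.36, 8.83 and 9.09 at E13.5, and fell by 1.33 ± 0.26. Slc17a6, the glutamate transporter of sensory neurons among others, fell by 1.37 ± 0.31, Elavl4, an RNA-binding protein of neurons, by 0.90 ± 0.26 and Gap43, of growing axons, by 0.53 ± 0.08. Prph (peripherin, of peripheral neurons) was at 8.50, 8.48 and 9.74 at E14.5, against 9.39, 8.85 and 8.80 at E13.5 and was not called. The count was 5 without E13.5 replicate 1, 6 without E13.5 replicate 3, 3 without E14.5 replicate 1 and 5 without E14.5 replicate 2.

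Of the 15 genes with the largest falls, several are known from the nervous system. Nhlh2, a transcription factor of neuron precursors, was at 4.35, 4.84 and 5.29 at E14.5, against 7.23, 6.91 and 7.74 at E13.5. Rab3c, a protein of synaptic vesicles, was at 5.01, 5.24 and 5.27 at E14.5, against 7.79, 7.62 and 7.29 at E13.5. Neurod1, a neuron differentiation factor, fell by 1.95 ± 0.37, Ina, the neurofilament internexin, by 1.71 ± 0.31, Zic4, a transcription factor of the dorsal brain, by 1.71 ± 0.18, and Gpm6a, a neuronal membrane protein, by 1.55 ± 0.20. Ncan, a proteoglycan of brain, fell by 1.497 ± 0.20 and Nsg2, a vesicle protein of neurons, by 1.45 ± 0.19. All of them were lower in every E14.5 array than in any E13.5 array, as the choice of these genes required. The choroid plexus list fell alongside, for 5 of 9 genes with a median of -1.30, or -1.14 with 2 members under the presence limit at E14.5 set to their bounds, but with 8 of 9 without E13.5 replicate 2 and 2 of 9 without E13.5 replicate 3. Among the E13.5 arrays, Nhlh2, Neurod1, Ina and Zic4 were lowest in replicate 2, as the choroid plexus list was, and Rab3c, Gpm6a, Ncan and Nsg2 were lowest in replicate 3, where that list was highest. The part that brain tissue in the pieces had in these falls was not tested.

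Other large falls were those of Igfbpl1, a secreted protein with an IGF binding protein domain, Lamp5, Tmem130, Cbln4, a secreted synapse organizer, and Veph1. Igfbpl1 was at 6.38, 6.17 and 5.86 at E14.5, against 8.08, 8.40 and 8.31 at E13.5. Lamp5, a lysosome-associated membrane protein, was at 4.92, 4.39 and 4.81 at E14.5, against 6.99, 7.60 and 6.29 at E13.5, and was at least 4.53-fold lower. Tmem130, Cbln4 and Veph1 fell by 1.88, 1.62 and 1.42. In glia, Fabp7, the fatty acid binding protein of early glia, fell by 1.21 ± 0.27, while Erbb3, the neuregulin receptor, and Pmp22, a myelin protein, rose by 0.33 and 0.36 and the other 6 of 9 glial genes, Sox10 among them, were not called.

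Of 11 genes of proximal and lower-jaw identity in the arch 9 fell and none rose, with a median of -0.58. Meis2, a homeodomain cofactor of proximal arch mesenchyme, was at 11.10, 10.95 and 11.04 at E14.5, against 11.74, 11.85 and 11.79 at E13.5. Pou3f3, a marker of the upper part of the arch, fell by 0.67 ± 0.14, and Dlx1 and Meis1 by 0.67 and 0.61. Dlx5 and Dlx6, which set lower-jaw identity, were not called, with differences of -0.23 and -0.39. Of 6 distal arch genes 2 fell, Hand2 by 0.78 and Msx2 by 0.69, and 4 were not called, against 12.3% of all genes called lower.

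Of 11 Hox genes, which the first arch itself does not use and the arches behind it do, 7 fell and none rose, with a median of -0.54. Hoxa2, which specifies the second arch, was at 8.18, 8.15 and 8.59 at E14.5, against 9.50, 9.64 and 9.32 at E13.5. Hoxb2, Hoxc5 and Hoxd3 fell by 0.83, 0.71 and 0.70. The count was 4 without E13.5 replicate 2, which had the highest mean of the list, and 3 without E14.5 replicate 2, which had the lowest. Where the pieces were cut toward the neck was not tested.

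Signalling pathways were followed through their target genes. In the hedgehog pathway, the targets Gli1, Ptch1 and Hhip rose by 0.50, 0.42 and 0.81, and Foxf2 fell by 0.52, among 5 measured. Shh, the ligand made by oral and dental epithelium, was at 7.67, 7.88 and 7.75 at E14.5, against 6.56, 6.79 and 7.10 at E13.5, a rise of 0.95 ± 0.23. Of 10 retinoic acid genes 5 fell and none rose: Crabp2, a binding protein, was at 10.99, 10.98 and 10.94 at E14.5, against 11.81, 11.81 and 11.82 at E13.5, and Rarb, a receptor that is itself a target, fell by 0.62. Axin2, a Wnt target, fell by 0.37 as the only 1 of 7 Wnt targets called. Of 8 Bmp targets Id1 and Id3 fell, by 0.21 and 0.17, and Bambi, a decoy receptor, rose by 0.35. Of 8 Fgf targets Il17rd fell by 0.47 and Dusp6 rose by 0.17, and of 7 Notch targets Heyl and Nrarp rose, by 0.54 and 0.43.

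Cholesterol synthesis genes fell for 7 of 9 and rose for none, with a median of -0.21. Fdft1 (squalene synthase) was at 10.79, 10.71 and 10.72 at E14.5, against 11.12, 11.24 and 11.23 at E13.5, and Sqle, the next enzyme, fell by 0.29. The count was 4 without E14.5 replicate 3. Of 19 cell cycle genes 1 was called, the replication licensing gene Mcm5, which fell by 0.15. The proliferation markers Mki67 and Top2a had differences of 0.15 and 0.11 and were not called. Of 11 immediate early and heat shock genes, which react to handling of tissue, 5 rose and 1 fell: Hspa1b, a heat shock protein, was at 10.76, 10.15 and 10.80 at E14.5, against 9.02, 9.25 and 9.03 at E13.5, Fos rose by 1.07 ± 0.12 and Jun fell by 0.48. The part of dissection time in these changes was not tested.

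Of 18 tooth development genes 2 rose, Shh and the signalling inhibitor Sostdc1 by 0.29, and 3 fell, Dlx1, Barx1 and Dlx2. Barx1, the transcription factor of the molar field, was at 9.44, 9.62 and 9.39 at E14.5, against 10.10, 10.14 and 9.93 at E13.5. Pax9 and Msx1, early tooth bud factors, had differences of -0.03 and -0.29 and were not called. Salivary gland genes rose for 2 of 7, Bhlha15, a factor of secretory cells, by 0.42 and Kcnn4, a potassium channel, by 0.48, and neither was called without E13.5 replicate 2 or 3 or E14.5 replicate 2 or 3. Inner ear genes rose for 2 of 6, Gata3 by 0.89 and Oc90, an otoconia protein, by 0.68. Oc90 was at 11.31, 11.30 and 10.39 at E14.5, against 10.67, 9.06 and 11.25 at E13.5, where the lowest value was again that of replicate 2. Among 7 genes of ciliated and airway epithelium, 3 of them under the presence limit at both ages, Bpifa1, a secreted airway protein that was under the limit at E13.5, rose at least 1.245-fold. Among 9 imprinted growth genes Meg3, a noncoding RNA, rose by 0.48. Of 11 hypoxia and glycolysis genes Adm (adrenomedullin) and Egln3, an oxygen-sensing hydroxylase, rose, by 0.71 and 0.44, and Ankrd37 fell by 0.31. No pigment cell gene was called (6 measured, 1 of them under the presence limit at both ages), nor any thyroid or parathyroid gene (5 measured, 3 of them under the limit at both ages).

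Some of the smaller changes depended on single arrays. The calls of Cdh5, Egln3 and Elavl4 were lost without E14.5 replicate 1, those of Epcam and Hoxb2 without E14.5 replicate 2, and that of Ltf without E14.5 replicate 3. Those of Tek, Hoxc5 and Trp63 were lost without E13.5 replicates 1, 2 and 3, taken in that order. Dlx2, Foxf2, Id1 and Pmp22 lost theirs when either of 2 arrays was left out, Col10a1, Dok7, Id3, Idi2, Oc90 and Sox9 with any of 3 left out, and Ankrd37, Bhlha15, Cyp26b1, Dusp6, Meg3, Msx2 and S100a8 with any of 4 left out. Kcnn4 and Mef2c lost theirs with any of 5 arrays left out and Chrnb1 with any of the 6. Every other call of a single gene in this comparison that is named here under the rule for named genes, sex-linked and choroid plexus genes aside, held when any 1 of the 6 arrays was left out.

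**Figure D3:**
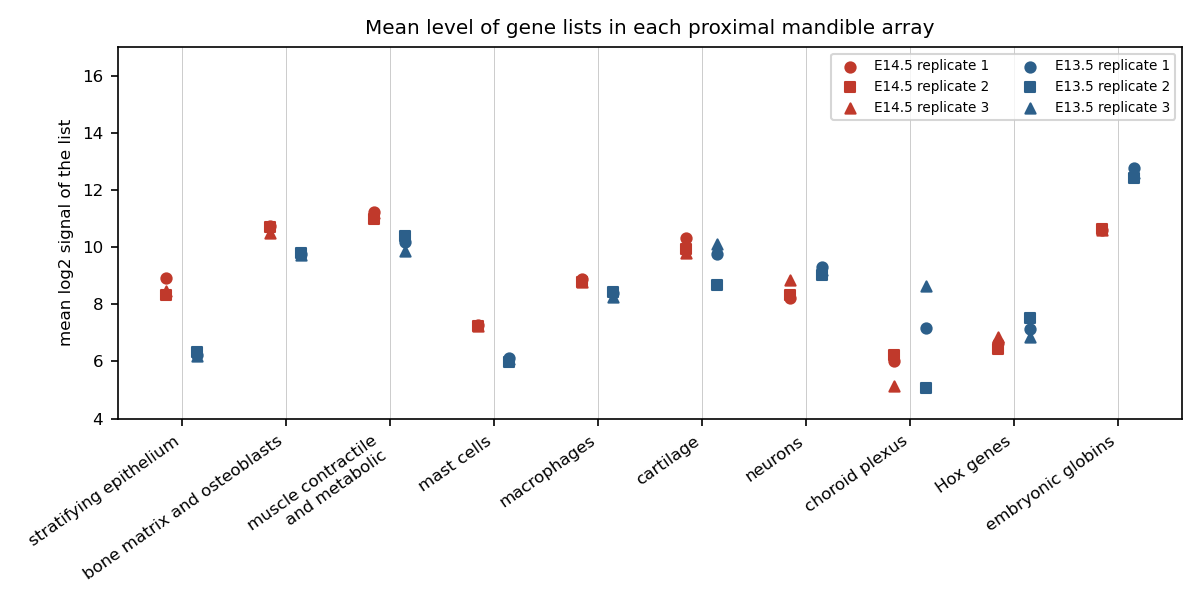
Mean log2 signal of 10 gene lists (vertical axis) in each proximal mandible array, E14.5 in red left of E13.5 in blue, with the symbol giving the replicate number. For epithelium, bone, muscle, mast cells and macrophages every E14.5 array lies above every E13.5 array, for globins and neurons below, and for cartilage, choroid plexus and Hox genes the ages overlap, with E13.5 replicate 2 lowest for cartilage and choroid plexus.

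The levels at earlier ages place this step in time, although E12.5 and the 2 earlier ages lie in other batches, so that levels across them are only described. Mmp13 averaged 3.14, 3.31, 3.22, 3.36 and 9.16 from E10.5 to E14.5, and Dsc1 3.21, 3.31, 3.44, 3.47 and 8.72, so both stayed under the presence limit until E13.5. Krt10 averaged 8.57, 9.34, 9.40, 9.75 and 13.002. Ibsp was already high a day earlier, with 3.16, 4.04, 7.64, 12.12 and 13.18, while Dmp1 followed with 3.31, 3.82, 4.24, 6.22 and 10.38.

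Cpa3 averaged 5.49, 6.17, 7.88, 9.13 and 11.73, and Cma1 4.64, 4.62, 5.21, 6.31 and 10.06, over the same 5 ages. Myl2 had an early high level, with 11.73, 4.42, 4.55, 5.96 and 10.06. Hbb-bh1 averaged 14.19, 14.01, 12.52, 10.34 and 7.29. For Cpa3 and Hbb-bh1 each age continued the same direction, while Nhlh2 had its highest mean at E13.5, with 4.34, 5.34, 6.56, 7.29 and 4.83.

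**Figure D4:**
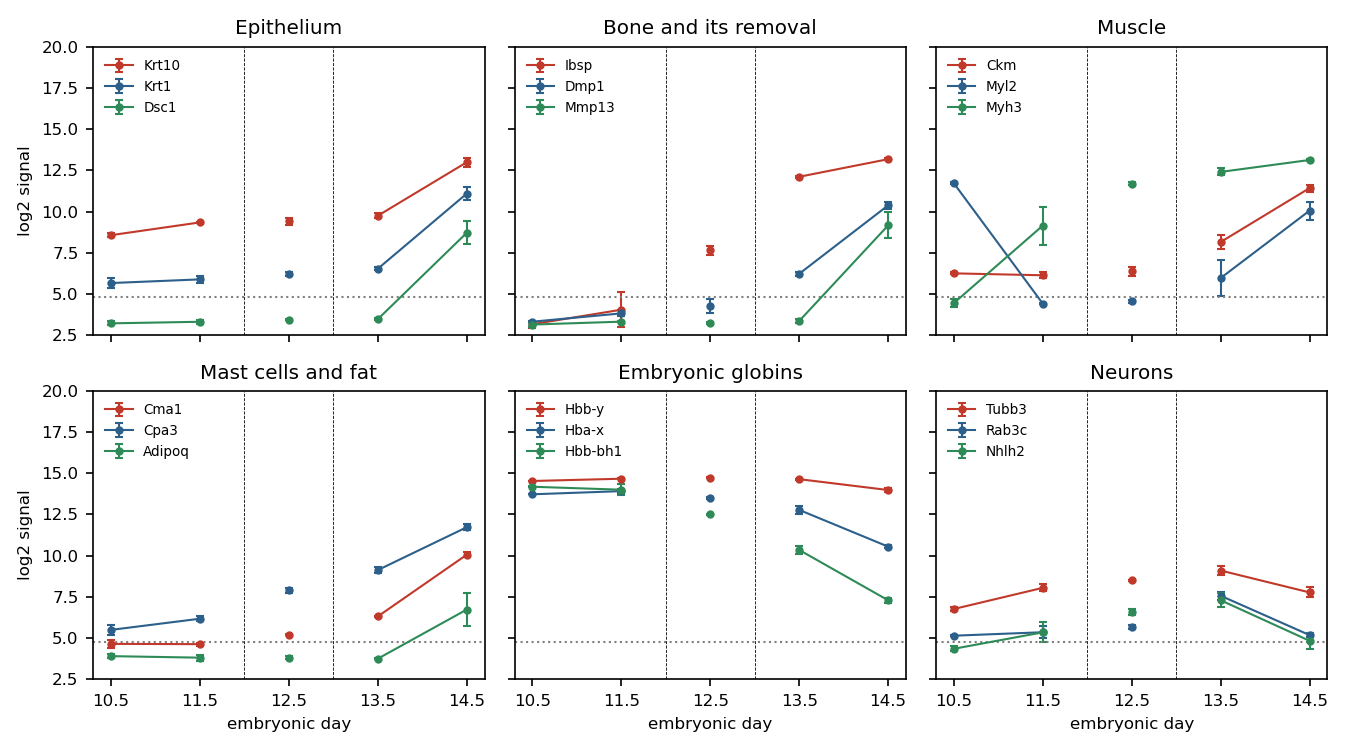
Mean log2 signal (vertical axis) against embryonic day in the proximal mandible for 3 genes each of 6 groups, with bars of 1 SD over 3 arrays, lines only within a batch, dashed verticals between batches and a dotted line at the presence limit of 4.78. Mmp13, Dsc1 and Adipoq lie under the limit up to E13.5, Ibsp passes it at E12.5, and Rab3c and Nhlh2 are highest at E13.5.

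The same day in the distal mandible gave 3092 called genes (17%), 1674 (9.2%) higher and 1418 (7.79%) lower, and in the proximal maxilla 3052 (16.8%), 972 (5.34%) higher and 2080 (11.4%) lower. Of the 234 genes at least 2-fold higher in proximal mandible, 196 were also called higher in distal mandible, which is 83.8% of them and 11.7% of the genes called higher there. In proximal maxilla 77 were also called higher, which is 32.9% of them and 7.92% of those called higher there. Of the 73 genes at least 2-fold lower in proximal mandible, 28 (38.4% of them and 1.97% of the genes called lower there) were called lower in distal mandible and 16 (21.9% and 0.769%) in proximal maxilla. These 3 pieces share no arrays, but their calls come from the same fit and use the same estimate of spread for each gene.

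The difference between the proximal and the distal change was called for 310 genes (1.7%), 76 (0.418%) of them upward, that is, with a more positive change in the proximal piece, and 234 (1.29%) downward. This split depends on scaling, since centring each array on its median gave 183 upward and 173 downward, and a further quantile normalization 129 and 230. Myl2 rose in the proximal mandible by 4.10, while in the distal mandible it averaged 4.49 at E14.5 and 4.08 at E13.5, under the presence limit at both ages (limma adjusted p of the difference = 8.79e-12). Adipoq rose at least 3.85-fold in the proximal piece and was under the limit at both ages in the distal one (limma adjusted p = 1.46e-11). For genes under the limit in a piece, the size of the difference between changes is not determined and is not given here. Otor, a secreted protein of inner ear and cartilage, rose by 1.39 in the proximal and fell by 0.87 in the distal mandible. Car3, a carbonic anhydrase of muscle and fat, and Hspb7, a small heat shock protein of muscle, had differences of 1.51 and 1.44.

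The 5 genes with the largest downward differences all rose in the distal mandible. Idi2, an isoprenoid enzyme, Sprr3, an envelope protein of the oral lining, and C1qtnf3, a secreted protein of cartilage and fat, did so by 3.37, 2.68 and 2.57. In the proximal mandible Idi2 was under the presence limit at both ages, and Sprr3 and C1qtnf3 had differences of 0.00 and 0.01. Dlx1as, the antisense RNA of Dlx1, averaged 8.30 at E14.5 and 9.23 at E13.5 in proximal mandible, and 9.02 and 6.69 in distal mandible. Its proximal difference of -0.93 was not called and its distal rise was 2.33. Igfbpl1 fell by 2.13 in the proximal mandible and rose in the distal by 0.65, a difference of -2.78 ± 0.29.

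By gene list, the distal mandible compared as follows. In the distal mandible 15 of 18 genes of stratifying epithelium rose, with a median of 1.97, and the difference was called upward for 2 and downward for 2. Bone genes rose for 3 of 16 in the distal mandible, with a median of 0.23, and the difference was called upward for Sp7 and Ifitm5 (adjusted p = 0.0458 and 0.00883). At E13.5 Dmp1, Ibsp, Alpl and Ifitm5 averaged 6.60, 12.89, 9.30 and 9.86 in the distal piece. The proximal means were lower, at 6.22, 12.12, 7.93 and 9.20. At E14.5 the distal means were 9.91, 13.01, 9.575 and 10.08, against proximal means of 10.38, 13.185, 9.19 and 10.52. Levels of the other bone genes are not compared between the pieces here. Muscle genes rose for 28 of 30 there, with a median of 1.45, and the difference was called for 2, both upward. Neuron genes were called lower for none of 15 in the distal mandible, with a median of -0.22 and 2 genes under the presence limit at both ages, and the difference was called for 1 of the 15, downward. Hox genes were called lower for none of 11 there, of which 3 were under the limit at both ages, and no difference was called. Mcpt4 had a larger rise in the distal mandible, where it was 2.70 (adjusted p of the difference between the changes 1.74e-06).

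The difference from the proximal maxilla was called for 1136 genes (6.24%), 522 (2.87%) upward in the mandible and 614 (3.37%) downward. Each jaw's change was formed within its own batch. Dsc1, at least 15.3-fold higher at E14.5 in the mandible, averaged 3.69 at E14.5 and 3.59 at E13.5 in the maxilla, under the presence limit at both ages (limma adjusted p of the difference = 1.84e-22). Krt1 rose by 4.57 in the mandible and fell by 0.45 in the maxilla. All 15 genes of stratifying epithelium that rose in the mandible had an upward difference, and 1 of the 18 rose and 2 fell in the maxilla, where 5 were under the presence limit at both ages. Mmp13 and Sdr16c6 were also under the presence limit at both ages in the maxilla. Prap1, a secreted protein of epithelium, was not called in the mandible and fell by 4.48 in the maxilla.

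Of the genes with a downward difference, Rab3c fell by 2.39 and Tmem130 fell by 1.88 in the mandible, and they rose in the maxilla by 0.39 and 0.60, and Gpm6a fell by 1.55 and rose by 0.88. The mean of Bpifa1 was 5.097 at E14.5 and 3.80 at E13.5 for the mandible, against 7.99 at E14.5 and 4.24 at E13.5 for the maxilla, with both E13.5 means under the presence limit (limma adjusted p of the difference = 1.09e-13). Of 16 bone genes 8 rose in the maxilla, with a median of 0.52, and the difference was called for 1. Of 30 muscle genes 4 rose in the maxilla and the difference was called upward for 7, and of 10 mast cell genes 2 rose there and the difference was called upward for 5. Of 15 neuron genes 1 rose in the maxilla, and the difference was called downward for 5. All 3 embryonic globins fell in both jaws, with a called difference downward in the mandible for each.

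**Figure D5:**
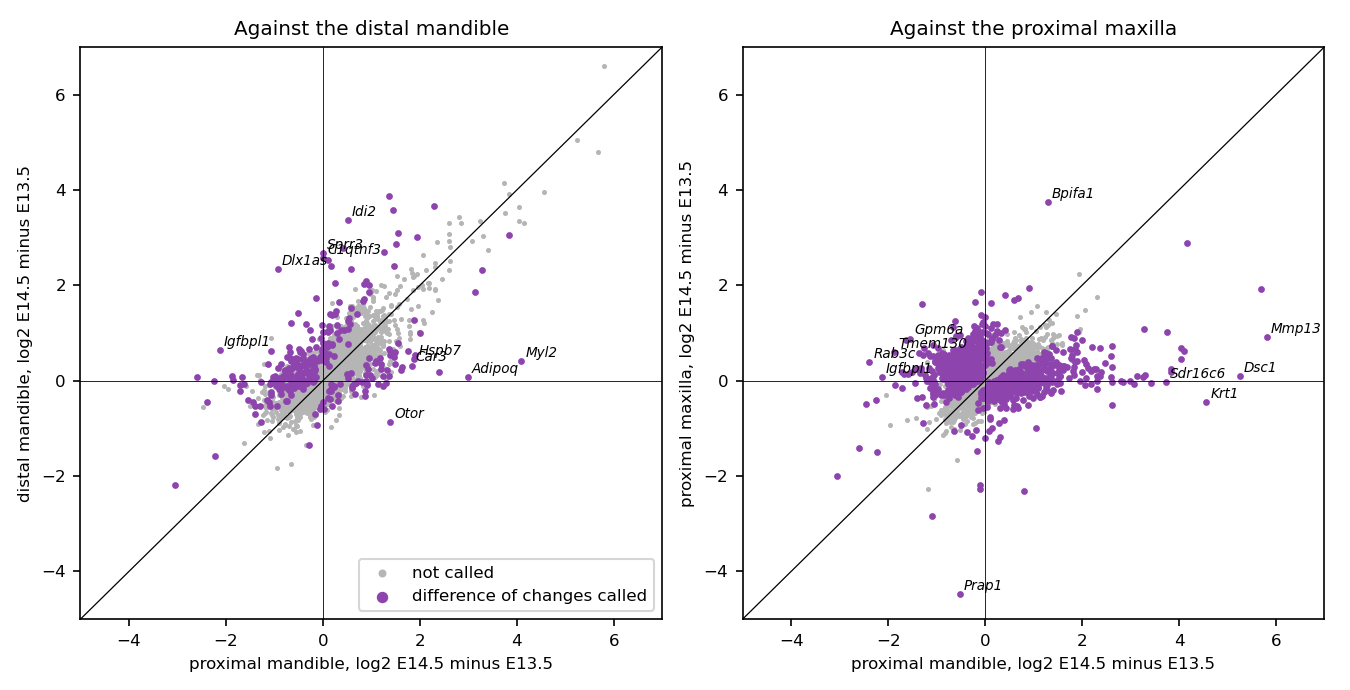
Log2 difference, E14.5 minus E13.5, in the proximal mandible (horizontal axis) against that in the distal mandible (left) and in the proximal maxilla (right), 1 point a gene, without sex-linked genes; purple points have a called difference between the changes and the line marks equal change. Dsc1, Krt1 and Mmp13 lie near the line against the distal mandible and near 0 on the vertical axis against the maxilla, and Myl2 and Adipoq, labelled in the left panel, lie at 0.41 and 0.08 on its vertical axis, which for both come from distal levels under the presence limit.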

How the data were processed

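Total RNA of proximal mandible was measured on Affymetrix Mouse Genome arrays, 3 at E14.5 and 3 at E13.5. The deposited values are log2 signals made by RMA, per the submitters' processing notes; no version is given. RMA corrects background, equalizes the arrays and summarizes probes, so a shift shared by most genes would be removed. The values were used as deposited. Of 45101 probe sets, 64 are controls, 34945 have a single gene symbol, 932 several and 9160 none in the platform annotation, and 34741 matched RefSeq. Each of 18193 genes was represented by its brightest probe set, judged by the mean of the 60 arrays. Of these genes, 9010 have more than 1 probe set, and 14 have another probe set called in the opposite direction, none of them named here. No pair of arrays shared more than 0.408% of equal values.

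A mean for each of the 20 groups was fitted to all 60 arrays with limma 3.58.1 in R 4.3.3 (lmFit, eBayes with trend, 40 residual degrees of freedom), and p-values were adjusted by Benjamini-Hochberg over all genes. Differences between changes were contrasts of the same fit. Each p-value and SE thus rests on a spread pooled over the 20 groups, not on that of the groups compared alone. For Adipoq the SD was 0.977 at E14.5 and 0.039 at E13.5, while the SE of its rise was 0.185. The table holds no detection calls, hence the presence limit. At least N-fold means the brighter group's mean over the dimmer group's, with a dimmer mean under that limit raised to it. On simulated data 75 of 100 genes changed by 0.5 and 100 of 100 changed by 1 on the log2 scale were recovered for the main comparison, with 5 false calls. The simulated noise was normal, independent between arrays and, for a gene, of equal spread in every group. Real spreads differed between groups, as for Col10a1 with an SD of 2.475 at E14.5 and 0.18 at E13.5. The simulated counts therefore do not give the error rate of these arrays. The number of arrays limits the precision.

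Named genes are the 15 called rises and the 15 called falls of greatest size (mean of at least 6 in the higher group, ages not overlapping, no predicted gene models or sex-linked genes), 5 per direction for each difference between changes, and in each list its first 2 members and the 4 most significant of those called. Members and lists were chosen with earlier results of these data known. Replicate numbers were not used to pair the samples. Between E14.5 and E13.5 arrays of the same number, the correlations of deviations from group means were -0.04, -0.23 and -0.12. These values do not show whether distal and proximal arrays of a number came from the same embryos. Alternatives were other scalings, filters, probe set rules, variance models, array weights, replicate blocks, fits on fewer arrays and leaving out arrays.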

Additional observations from a re-analysis of the deposited data

Results flagged for a closer look

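The following results stand out because the change over the day differed between pieces of the jaw by a test of the difference itself. The sizes are differences of measured log2 signals. Where a group lies under the presence limit of 4.78, the size is not determined and the number describes the signals alone. The change differed between proximal and distal mandible for 310 genes and between proximal mandible and proximal maxilla for 1136 genes. Against the distal mandible, the proximal change was larger for Myl2 by 3.69, Adipoq by 2.91, Otor by 2.26, Car3 by 1.51 and Hspb7 by 1.44 on the log2 scale. The difference of the proximal and the distal change was -3.26 for Dlx1as, -2.86 for Idi2, -2.78 for Igfbpl1, -2.68 for Sprr3 and -2.57 for C1qtnf3. Myl2 was under the limit at both ages in the distal mandible, Adipoq there and at E13.5 in the proximal mandible, and Idi2 at both ages in the proximal mandible. Against the proximal maxilla, the change in the mandible was larger for Dsc1 by 5.15, Krt1 by 5.02, Mmp13 by 4.90, Prap1 by 3.96 and Sdr16c6 by 3.76. The difference of the mandible and the maxilla change was -2.79 for Rab3c, -2.47 for Tmem130, -2.45 for Bpifa1, -2.44 for Gpm6a and -2.21 for Igfbpl1. Dsc1, Mmp13 and Sdr16c6 were under the limit at E13.5 in the mandible and at both ages in the maxilla, and Bpifa1 at E13.5 in both jaws. Prap1 was not called in the mandible, where its means were 5.001 at E14.5 and 5.52 at E13.5, and in the maxilla they were 5.17 at E14.5 and 9.65 at E13.5.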

How the results depend on the processing

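For the proximal mandible the count of 3898 called genes was between 2692 and 4381 in 12 fits on genes with other scalings, filters, probe set means, variance models, weights, blocks or arrays, 5633 with all single-symbol probe sets as units, and 2449 to 3446 when replicates were left out. The lowest of these came without replicate 3 of both ages. The share of called genes that were higher also moved. It was 42.5% in the main fit and 50.4% with the replicate block over the 6 arrays. Without replicate 3 it was 49.2%, and without replicate 1 it was 36.8%. With a 2-fold limit the 3 counts were 307 for the change itself, 94 for the difference from distal mandible and 299 for the difference from proximal maxilla. Array weights, which ran from 0.148 to 30.2 and whose iteration stopped before it converged, gave 777 and 2446 genes for the 2 differences. Leaving out replicates gave 149 to 312 genes for the difference from distal mandible and 677 to 1091 for that from proximal maxilla. For distal mandible the count fell to 191 without distal mandible E14.5 replicate 1. Both counts fell by more than 1.5 times without replicate 1 or replicate 2 of the groups compared, as did the difference from the maxilla without replicate 3. The upward share of the difference from distal mandible was 24.5%, against 51.4% after centring and 35.9% after quantile normalization. Samples share only replicate numbers. With the replicate block as a fixed term the count was 4039 over all arrays and 2692 over the 6 arrays, and with a random block 3900, at a consensus correlation of 0.02. Col10a1 reversed to -0.23 without replicate 1 and to -0.13 without E14.5 replicate 1, and Oc90 to -0.11 without replicate 2, against up to 2.14 and 1.45 when other replicates were left out; the cause was not tested beyond the array values given. Of the 229 results on single genes, the change kept its direction and call for between 194 and 228 in each fit that covered all of them. The number of arrays sets the depth, and genes under the presence limit have bounds only.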
